A study of Mus musculus with 8 samples.

Results

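The cell junction and polarity genes are 41 mouse genes for the proteins that hold epithelial cells to each other and set their apical and basal sides. They were taken from a fixed list of gene symbols, out of 21000 protein-coding genes with a curated RefSeq transcript on chromosomes 1 to 19, X and Y. The list holds 19 adherens junction genes, 9 tight junction genes, 7 desmosome genes, 6 polarity genes and Epcam, with Jup counted in both the adherens junction and the desmosome. A gene was counted as bound when c-Jun had a peak centre at most 10 kb from one of its transcription start sites (TSSs).

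Binding of c-Jun, a subunit of the transcription factor AP-1, was measured by ChIP-seq in 2 mouse lines. EpiSCs are primed pluripotent cells of the epiblast, given in the labels as wild type and of strain CBA/CaJ X C57BL/6J, and were kept without feeders in medium with Activin A and bFGF. kEpiSCs are an EpiSC line that carries a Klf4 transgene under the CAG promoter, which is active in most cell types, and an Oct4-GFP reporter. The labels give no strain for kEpiSCs. The methods of the study describe EpiSCs from females of a strain other than those in the label, crossed with males that carry the Oct4-GFP reporter. This reporter may thus be in both lines. There were 2 libraries of c-Jun ChIP and 2 of input for either line, and 1 list of peaks was deposited per line, with 16166 peaks in EpiSCs and 6032 in kEpiSCs. No value per replicate was available, so the differences between lines below have no replicate error and are given as descriptions. Reads at the summit, solved from the deposited fold and p-value, had a median of 10 in EpiSCs (5 to 159) and 14 in kEpiSCs (7 to 67).

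Adherens junctions are built from cadherins, which bind the cadherins of the next cell, and from catenins, which tie them to actin. Tight junctions, built from claudins, occludin and their scaffold proteins, seal the space between cells, and desmosomes link to keratin through plakophilins and desmoplakin. The Par, Crumbs and Scribble protein groups set where these junctions form along the side of the cell. Primed pluripotent cells grow as a flat epithelium and carry E-cadherin, the product of Cdh1. AP-1 binds TGASTCA, where S is C or G.

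The peaks around Cdh1 carry the sequences shown first, since Cdh1 was the gene examined to 50 kb and most of its peaks hold an exact AP-1 site. The Cdh1 gene lies on the plus strand of chromosome 8 with its TSS at position 106603350 (mm10), and is 66.9 kb long. All sequences are from GRCm38.p6, the assembly of mm10, are given on the plus strand from 5′ to 3′, and have TGAGTCA or TGACTCA in capitals. The first 3 regions lie in intron 2 of Cdh1 and the last 2 between Cdh3 and Cdh1. Peaks longer than 300 bp are shown as the bases around their summit.
Cdh1 +11550 bp, chr8:106614812-106614988: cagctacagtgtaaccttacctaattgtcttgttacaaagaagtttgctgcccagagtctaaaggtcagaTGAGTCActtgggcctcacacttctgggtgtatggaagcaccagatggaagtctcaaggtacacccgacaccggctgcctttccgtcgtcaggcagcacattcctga
Cdh1 +12684 bp, chr8:106616053-106616253: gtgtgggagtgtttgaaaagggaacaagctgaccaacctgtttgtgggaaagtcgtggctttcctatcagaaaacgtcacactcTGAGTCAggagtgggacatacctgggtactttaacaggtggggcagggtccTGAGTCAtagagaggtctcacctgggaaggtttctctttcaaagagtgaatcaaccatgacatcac
Cdh1 +16351 bp, chr8:106619695-106619895: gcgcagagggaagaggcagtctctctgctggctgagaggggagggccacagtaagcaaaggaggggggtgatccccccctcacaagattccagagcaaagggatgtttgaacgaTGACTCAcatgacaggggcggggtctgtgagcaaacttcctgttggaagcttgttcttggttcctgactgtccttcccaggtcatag
Cdh1 −41689 bp, chr8:106561597-106561726: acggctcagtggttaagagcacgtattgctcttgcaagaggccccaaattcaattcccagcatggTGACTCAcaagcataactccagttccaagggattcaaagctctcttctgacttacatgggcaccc
Cdh1 −42690 bp, chr8:106560469-106560669: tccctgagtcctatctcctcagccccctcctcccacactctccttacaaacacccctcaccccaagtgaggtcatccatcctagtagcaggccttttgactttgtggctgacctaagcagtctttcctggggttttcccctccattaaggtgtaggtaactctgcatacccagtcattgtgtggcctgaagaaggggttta
The region at +12684 bp held 2 exact sites, and the regions at +11550, +16351 and −41689 bp held 1 each. The peak at −42690 bp held TGACTCA 224 bp from its summit, outside the bases shown.

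For the other members, 61 bases around an exact site are shown for the highest-scoring EpiSC peak of Kifc3, Pkp3, Epcam, Pkp2, Jup and Cdh3, as examples of the site at adherens junction and desmosome genes and at Epcam. Cldn4 is shown as an example of a highest-scoring peak with no exact site in its whole length, and its 61 bases are those around the summit. It was not the only such member, and the highest-scoring peak of Prkci, not shown, held none either. The examples were chosen by the site and do not reflect its share. In the central 200 bp, 19 of the 47 EpiSC peaks within 10 kb of a member held it.
Kifc3, chr8:95210234-95210294: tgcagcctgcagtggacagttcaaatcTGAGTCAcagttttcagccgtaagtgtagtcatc
Pkp3, chr7:141079052-141079112: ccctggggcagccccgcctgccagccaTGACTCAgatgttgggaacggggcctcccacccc
Epcam, chr17:87640294-87640354: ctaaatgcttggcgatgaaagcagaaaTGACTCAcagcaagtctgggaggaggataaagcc
Pkp2, chr16:16217074-16217134: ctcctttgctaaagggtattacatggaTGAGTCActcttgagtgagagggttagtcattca
Jup, chr11:100398156-100398216: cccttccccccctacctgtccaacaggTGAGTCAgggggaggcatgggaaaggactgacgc
Cdh3, chr8:106518917-106518977: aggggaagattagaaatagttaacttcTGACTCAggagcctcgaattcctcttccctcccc
Cldn4, chr5:134942936-134942996: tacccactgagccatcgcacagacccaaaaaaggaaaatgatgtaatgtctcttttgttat

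In EpiSCs, 22 of the 41 members (53.7%, 95% Wilson interval 38.7 to 67.9%) had a c-Jun peak no farther than 10 kb from a TSS, against 21.8% of all 21000 protein-coding genes. In kEpiSCs, 14 members (34.1%, 21.6 to 49.5%) had one, against 8.27% of all genes. The share varied with gene length, and weighting all genes to the deciles of length of the members gave 23.4% in EpiSCs and 9.08% in kEpiSCs. Within 50 kb, 32 members had a peak in EpiSCs and 25 in kEpiSCs, where 50.7% and 27.0% of all genes did. The intervals cover counting error over genes only, and the members were chosen with earlier results of these data known.

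The classes did not have the same share. In EpiSCs a peak was present at 7 of 9 tight junction genes (77.8%, 45.3 to 93.7%), 5 of 7 desmosome genes (71.4%, 35.9 to 91.8%), 8 of 19 adherens junction genes (42.1%, 23.1 to 63.7%) and 2 of 6 polarity genes (33.3%, 9.68 to 70.0%). The length-weighted share over all genes was between 21.6% and 24.2% for these classes. In kEpiSCs the counts were 5 tight junction genes (55.6%, 26.7 to 81.1%), 3 desmosome genes (42.9%, 15.8 to 75.0%), 5 adherens junction genes (26.3%, 11.8 to 48.8%) and no polarity gene (upper limit 39.0%). The intervals of all 4 classes overlapped in each line, so the order of the classes was not separated from counting error. The adherens junction count in EpiSCs also moved with the distance, to 4 genes within 5 kb and 15 within 50 kb. The tight junction count was 7 and 8 at these distances. Over all genes the EpiSC share was 15.3% within 5 kb and 50.7% within 50 kb.

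**Figure D1:**
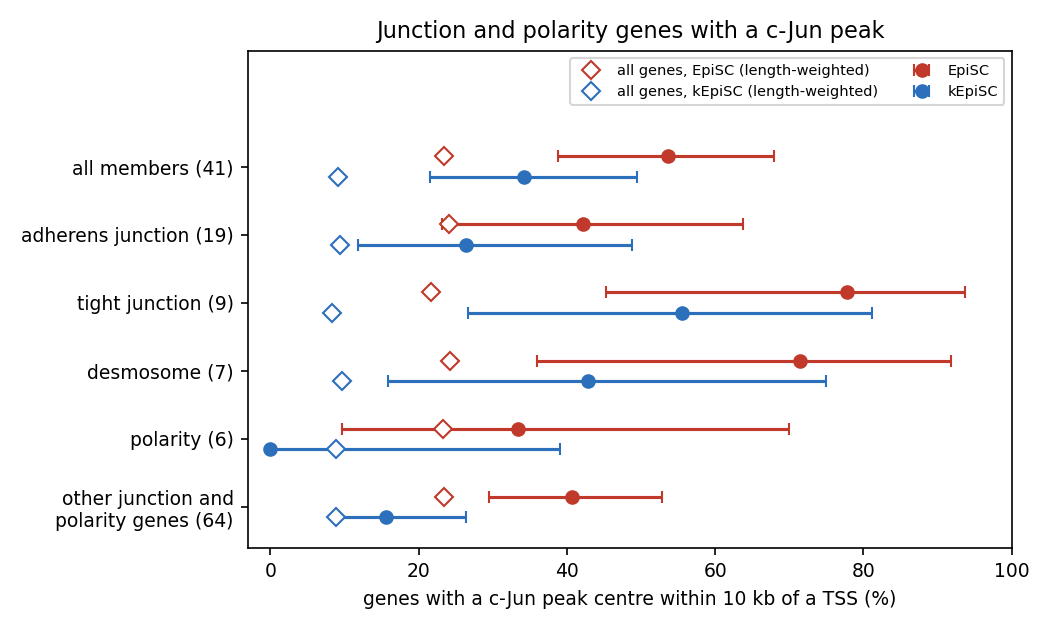
The x axis is the percentage of genes with the centre of a c-Jun peak no farther than 10 kb from a TSS, and the y axis lists the classes with their number of genes, without Epcam, which is a class of its own. Filled points with bars are the members with 95% Wilson intervals in EpiSCs (red) and kEpiSCs (blue), and open diamonds are all protein-coding genes weighted to the same gene lengths, which lie at about 22 to 24% in EpiSCs and 8 to 10% in kEpiSCs.

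A further 64 junction and polarity genes that are not members were counted in the same way. A peak was found at 26 of them in EpiSCs (40.6%, 29.5 to 52.9%) and at 10 in kEpiSCs (15.6%, 8.71 to 26.4%). The length-weighted share over all genes was 23.4% in EpiSCs and 8.88% in kEpiSCs, and the kEpiSC interval included it. By class, the EpiSC counts were 9 of 20 adherens junction genes, 9 of 20 tight junction genes, 3 of 8 desmosome genes and 5 of 16 polarity genes. The length-weighted share over all genes for these classes was between 22.7% and 24.2%. In kEpiSCs the counts were 4 of 20, 4 of 20, 0 of 8 and 2 of 16 in the same order, with shares over all genes between 8.54% and 9.33%. High-scoring peaks lay at Mark3, a polarity kinase (fold 17.5), and Ajuba, a LIM protein of adherens junctions (fold 14.3).

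Among the cadherin genes, Cdh1 had 6 EpiSC peaks within 50 kb of its TSS but none within 10 kb. At least 6 peaks within 50 kb were found at 3.33% of all genes. In intron 2 the fold enrichment over the local background at the summit was 7.06 at +11550 bp, 11.7 at +12684 bp and 12.8 at +16351 bp, with 14, 19 and 19 reads at the summit. The 2 intergenic peaks upstream had a fold of 5.80 at −41689 bp and 8.67 at −42690 bp. The strongest Cdh1 peaks were thus inside the gene, and 6.81% and 5.47% of the EpiSC list scored above those at +12684 and +16351 bp.

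In kEpiSCs Cdh1 had 5 peaks within 50 kb, a number reached by 0.662% of all genes. One of these, at the promoter 31 bp after the TSS (chr8:106603307-106603456), had a fold of 4.23 and 10 reads, no exact AP-1 site, and 99.8% of the kEpiSC list scored above it. The other 4 overlapped EpiSC peaks. At these 4 places the fold in EpiSCs and kEpiSCs was 7.06 and 6.95, 11.7 and 15.0, 12.8 and 7.48, and 8.67 and 4.75, in the order +11550, +12684, +16351 and −42690 bp. Thus the intron 2 peak with 2 AP-1 sites was the highest in kEpiSCs, and the one with 1 site at +16351 bp was the highest in EpiSCs. The lists were scaled separately, so folds compare peaks within a line.

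**Figure D2:**
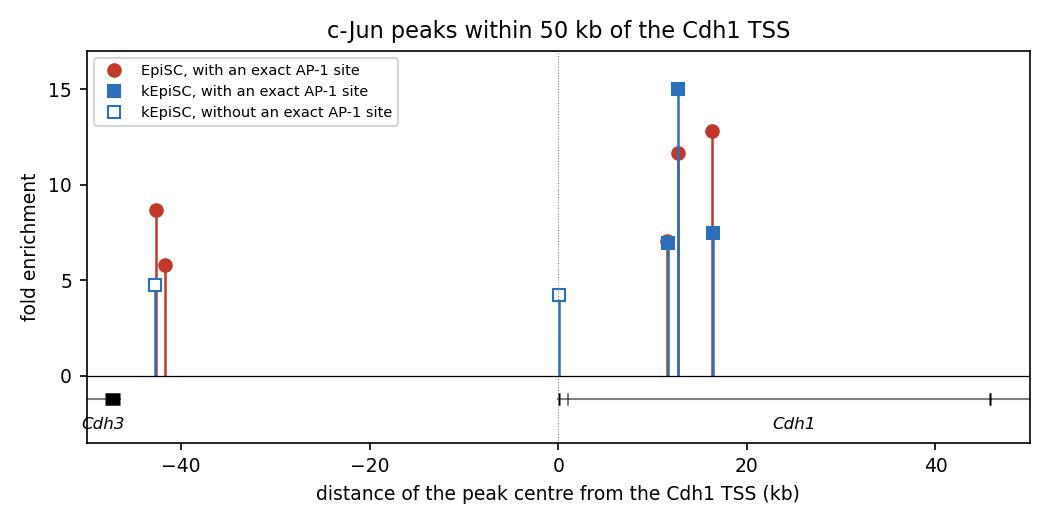
The x axis is the distance of the peak centre from the Cdh1 TSS in kb and the y axis is the fold enrichment at the summit in EpiSCs (red circles) and kEpiSCs (blue squares), filled where the peak holds an exact AP-1 site, with 5 of the 6 EpiSC peaks drawn. Below, black marks are exons and grey lines introns of Cdh1 and of the end of Cdh3. The highest peaks lie in intron 2, at a fold of 15.0 in kEpiSCs and 12.8 in EpiSCs.

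Cdh3, which encodes P-cadherin and lies next to Cdh1, had 1 peak in each line within 10 kb, both in its intron 2 but at different places. The EpiSC peak at +8094 bp had a fold of 7.41 and 13 reads and held the site shown above. The kEpiSC peak at +5589 bp had a fold of 4.52 and 8 reads and held none. The member genes Cdh2, Cdh5 and Cdh11 had no peak within 10 kb in either line. In EpiSCs the nearest peak was 50.2 kb from Cdh2 (N-cadherin), 43.2 kb from Cdh5 (VE-cadherin of endothelium) and 70.4 kb from Cdh11, a mesenchymal cadherin, while in kEpiSCs it was 769.6 kb, 240.1 kb and 750.1 kb away. The Cdh2 gene body held 3 EpiSC peaks, and with predicted RefSeq transcripts added, Cdh2 and the tight junction scaffold gene Tjp1 also had a peak within 10 kb of a TSS.

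Of the catenin genes, Ctnna1, which encodes the alpha-catenin that binds actin, had 3 EpiSC peaks, at −240, −1840 and −3091 bp, with folds of 6.47, 6.66 and 6.61. Each had 1 exact AP-1 site in the 200 bp around its centre, though at −1840 bp this site lay just outside the called peak. Ctnnd1 (p120-catenin, which keeps cadherin at the membrane) had 1 EpiSC promoter peak at −31 bp with a fold of 7.28 and no exact site. Jup (plakoglobin, shared with desmosomes) had 3 EpiSC peaks, at −392 bp (fold 8.01), +3694 bp (7.70) and +19 bp (4.16), the first 2 with an exact site. None of these 3 catenin genes had a kEpiSC peak within 10 kb, and the nearest was at 53.2, 378 and 28.2 kb. Ctnnb1 (beta-catenin) had no peak within 10 kb in either line, and its nearest lay 19.9 kb away in EpiSCs and 39.1 kb in kEpiSCs. The neuronal alpha-catenin gene Ctnna2 was far from any peak, at 1351 kb in EpiSCs.

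Among the nectins and linker proteins, Kifc3, a motor protein that moves along microtubules to adherens junctions, had the highest fold of any EpiSC peak within 10 kb of a member. This peak, chr8:95209942-95210402 at −7346 bp, had a fold of 15.7, 22 reads and 2 exact sites, and the overlapping kEpiSC peak had a fold of 12.7. Plekha7, which links p120-catenin to microtubules, had 6 EpiSC peaks within 10 kb of its 5 TSSs, all in introns. At least 6 such peaks were found at 0.0762% of all genes, counted over genes with any number of TSSs. The 5 TSSs of Plekha7 widened the stretch searched, so this share does not compare like with like. Their folds were 3.70, 6.28, 8.74, 8.89, 8.89 and 9.58, and 2 of the 6 overlapped the 2 kEpiSC peaks of the gene (fold 6.95 and 7.69). None of the 6 had an exact site in its central 200 bp, though the highest held 2 over its whole length. Camsap3, which anchors the minus ends of microtubules, had 1 EpiSC peak in intron 1 with a fold of 4.76 and 8 reads, and none in kEpiSCs.

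Nectin1, an adhesion receptor of the immunoglobulin family, had 1 peak in each line at different places. The EpiSC peak lay at −5958 bp with a fold of 6.35, and the kEpiSC peak at −2 bp with a fold of 6.56, neither with an exact site. Afdn (afadin, which joins nectins to actin) had its nearest peak at 16.8 kb in EpiSCs and 16.6 kb in kEpiSCs. Its EpiSC peak had a fold of 12.0 and lay in an intron of the neighbouring gene Tcte2. Lmo7, Nectin2, Nectin3 and Srcin1 had no peak within 10 kb in either line, with the nearest EpiSC peak at 12.1, 33.6, 536 and 46.7 kb. The Srcin1 gene body held 3 EpiSC peaks and that of Lmo7 held 2.

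Of the tight junction genes, Cldn4 had 6 EpiSC peaks and 4 kEpiSC peaks within 10 kb of its 1 TSS, the most of the 9 tight junction members. At least 6 EpiSC peaks within 10 kb were found at 0.0762% of all genes. Its promoter peak (chr5:134946811-134947531) had a fold of 14.1, 26 reads and 2 exact sites in EpiSCs, and 9.89 with 37 reads in kEpiSCs. The peak at +4051 bp (chr5:134942720-134943046) had the highest fold, 14.8 with 27 reads in EpiSCs and 11.05 in kEpiSCs. The 4 remaining EpiSC peaks had lower folds of 4.23, 4.23, 5.21 and 5.82, and the other 2 kEpiSC peaks had folds of 6.15 and 5.06. All 4 kEpiSC peaks overlapped an EpiSC peak. In EpiSCs 1.82% of the list scored above the peak at +4051 bp and 2.52% above the promoter peak.

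The neighbouring claudin gene Cldn3 had 1 EpiSC peak, at −4665 bp with a fold of 6.84 and 1 exact site, and no kEpiSC peak nearer than 26.9 kb. Cldn6 had 3 EpiSC peaks (fold 3.60, 5.69 and 8.11) and 2 kEpiSC peaks (5.00 and 6.70), but all of them lay in the neighbouring genes Tnfrsf12a or Hcfc1r1, and no TSS of Cldn6 was the nearest to any. Cldn7 had none, with its nearest at 15.2 kb in EpiSCs and 15.5 kb in kEpiSCs. Ocln, which encodes the membrane protein occludin, had 1 EpiSC peak at +231 bp with a fold of 4.23 and 7 reads, in the lower part of the list.

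F11r (the adhesion receptor JAM-A) had a promoter peak with an exact site in both lines, with a fold of 6.12 at −121 bp in EpiSCs and 7.09 at −133 bp in kEpiSCs. A second kEpiSC peak in intron 1, at +7705 bp, had a fold of 10.1, 18 reads and 2 exact sites and overlapped no EpiSC peak. Cgn (cingulin, which links tight junctions to myosin) had 2 EpiSC peaks in intron 1 with folds of 5.12 and 4.76, the second overlapping a kEpiSC peak of 5.93. Tjp3 (ZO-3) had 3 EpiSC peaks, with folds of 4.51, 5.83 and 6.84. Of these, 2 lay in or at the promoter of the neighbouring gene Pip5k1c, and the one inside Tjp3 overlapped a kEpiSC peak with a fold of 6.15. Tjp1 (ZO-1) had its nearest peak at 51.6 kb in EpiSCs and 59.4 kb in kEpiSCs.

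In the desmosome, the plakophilins bind desmosomal cadherins from inside the cell. Pkp3 had 3 EpiSC peaks within 1 kb of its TSSs, of which the promoter peak at −659 bp had a fold of 11.8, 18 reads and 2 exact sites. The other 2, in intron 1, had folds of 6.81 and 5.93, and the promoter peak and the first of these were also present in kEpiSCs (7.09 and 6.15). Within 10 kb, Pkp2 had 1 peak in intron 1 in each line, with a fold of 8.89 in EpiSCs and 8.56 in kEpiSCs, and the same exact site lay in both. A second pair of overlapping peaks lay farther into intron 1, at 11289 bp in EpiSCs (fold 11.2) and 11221 bp in kEpiSCs (fold 7.83). Pkp1 had no EpiSC peak within 50 kb and 1 in kEpiSCs at 19.4 kb.

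Dsp (desmoplakin, which binds keratin filaments) had EpiSC peaks at −996 bp (fold 4.58) and −6081 bp (4.68), both without an exact site, and the second overlapped a kEpiSC peak of 4.38. Dsg2, a desmosomal cadherin, had 2 EpiSC peaks, at −2943 bp (fold 7.53, 1 exact site) and −3616 bp (4.76, 2 sites), and no kEpiSC peak nearer than 222 kb. Dsc2, the other desmosomal cadherin among the members, had none within 10 kb, with the nearest at 19.3 kb in EpiSCs. Epcam, an epithelial adhesion molecule outside these classes, had 1 peak in coding exon 4 in both lines, with a fold of 8.85 and 16 reads in EpiSCs and 6.69 and 11 reads in kEpiSCs.

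Of the polarity genes, Prkci, the atypical protein kinase C of the Par complex, had 3 EpiSC peaks, at −73 bp (fold 3.55), +5613 bp (6.84) and +9145 bp (6.88). Pard6b, the subunit that binds this kinase, had 1 at −2101 bp with a fold of 6.49. None of these 4 peaks held an exact site in its central 200 bp or overlapped a kEpiSC peak. Pard3, Scrib, Llgl1 and Crb3 had no peak within 10 kb in either line, and in EpiSCs the nearest was at 54.2, 88.1, 131 and 32.6 kb. The long Pard3 gene, 548 kb, held 4 EpiSC peaks in its body, away from its TSSs.

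**Figure D3:**
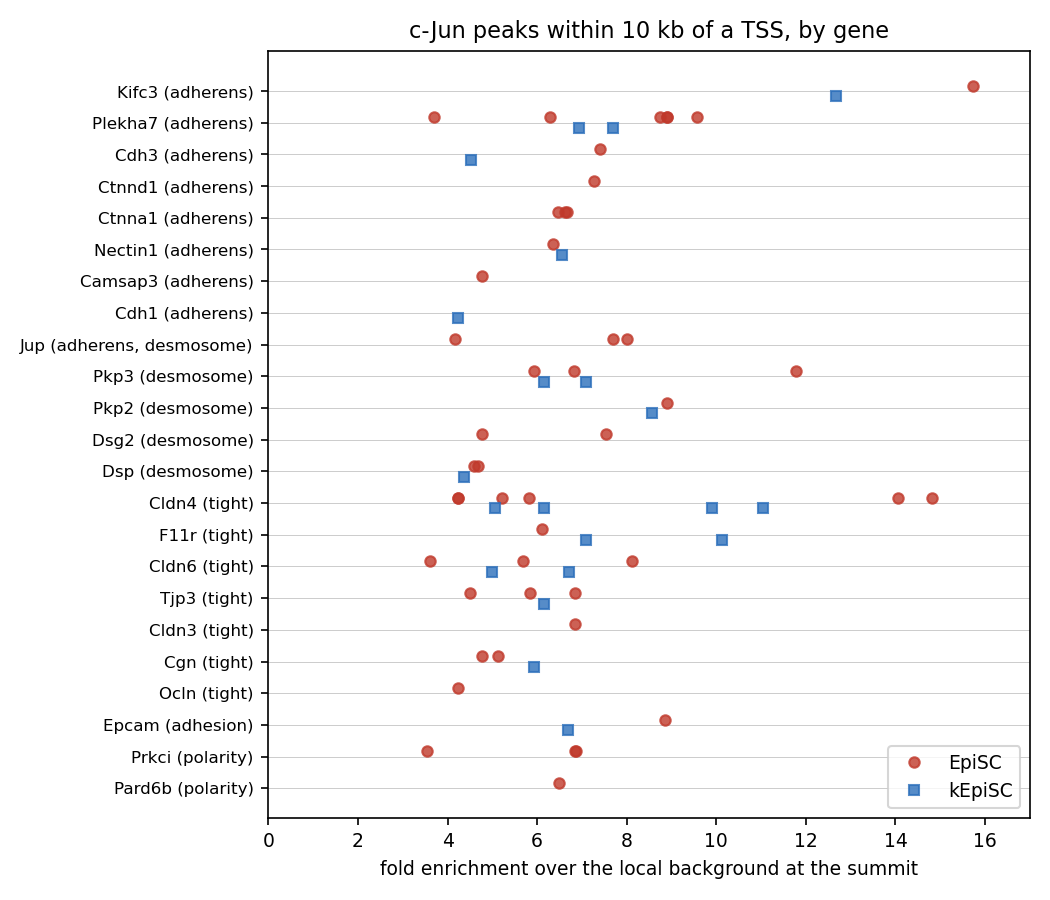
The x axis is the fold enrichment at the summit and the y axis lists the 23 members with a peak within 10 kb of a TSS in either line, with their class. Each point is 1 peak in EpiSCs (red circles) or kEpiSCs (blue squares), and the highest EpiSC folds are at Kifc3 (15.7), Cldn4 (14.8) and Pkp3 (11.8).

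The 19 members without an EpiSC peak within 10 kb had their nearest peak at a median of 46.7 kb (11.6 to 1351 kb). At 10 of them it lay between 10 and 50 kb. In EpiSCs the 10 kb limit did not fall where the folds dropped. Just inside it lay peaks of Prkci at 9145 bp (fold 6.88), Tjp3 at 8347 bp (6.84) and Cdh3 at 8094 bp (7.41). Just outside it lay peaks of Cldn4 at −10641 bp (7.29), Pkp2 at 11289 bp (11.2) and Cdh1 at 11550 bp (7.06). In kEpiSCs the folds just inside were 6.15 (Tjp3), 10.1 (F11r) and 12.7 (Kifc3). Those just outside were 5.06 (Cldn4), 7.83 (Pkp2) and 6.95 (Cdh1). In the gene bodies of the members there were 1.40 EpiSC peaks per 100 kb, against 0.821 in all genes, and 0.584 kEpiSC peaks against 0.294.

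The 47 EpiSC peaks within 10 kb of a member had a median fold of 6.49 (3.55 to 15.7), and all 5180 EpiSC peaks within 10 kb of a protein-coding TSS had 5.82. They lay both upstream (26 peaks) and downstream (21) of the TSS, and 12 were within 1 kb of it. By position, 10 were in promoters (1000 bp before to 100 bp after a TSS), 20 in introns, 12 between genes and 5 in coding exons or untranslated regions. Of the 47, 20 rested on fewer than 10 reads at the summit. For 42 of them the nearest TSS was that of a member, and the other 5 were the 3 peaks at Cldn6 and the 2 at Pip5k1c named above.

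TGASTCA, searched as TGAGTCA and TGACTCA, which covers both strands, lay in the central 200 bp at 19 of the 47 EpiSC peaks (40.4%, 27.6 to 54.7%). This window reaches past the ends of peaks shorter than 200 bp, and searched over the whole peaks the share was 42.6%. The share was 35.7% in all peaks near a TSS and 45.9% in the whole list. Windows of the same length 2 kb to each side of the member peaks held it in 3 of 94 cases (3.19%). The related site TGACGTCA was in none of the 47, and in 3.42% of all peaks near a TSS. In kEpiSCs 10 of the 21 member peaks held TGASTCA (47.6%, 28.3 to 67.6%), and 49.2% of all peaks near a TSS did. Both intervals at members included the share of all peaks near a TSS. Of the 10 promoter peaks in EpiSCs 5 held the site (23.7 to 76.3%), where 16.3% of all promoter peaks did. The 37 member peaks outside promoters went the other way, with the site in 14 (37.8%, 24.1 to 53.9%), against 49.1% of all such peaks.

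**Figure D4:**
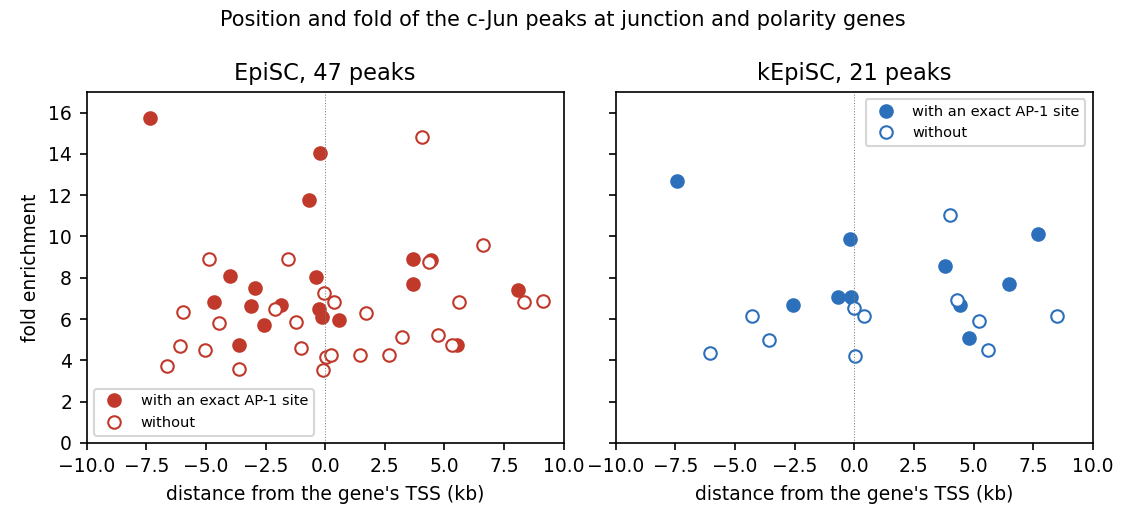
The x axis is the distance of the peak centre from the TSS of the member in kb, negative upstream, and the y axis is the fold enrichment at the summit, for the 47 EpiSC peaks (left) and 21 kEpiSC peaks (right). Filled points hold TGASTCA in the central 200 bp, 19 in EpiSCs and 10 in kEpiSCs, and they occur on both sides of the TSS.

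The peaks of the members were set against those of the other line. Of the 22 members with an EpiSC peak, 13 also had a kEpiSC peak (59.1%), where 30.2% of all genes with an EpiSC peak did. Within 10 kb, the 9 with a peak in EpiSCs only were Camsap3, Cldn3, Ctnna1, Ctnnd1, Dsg2, Jup, Ocln, Pard6b and Prkci. Cdh1 was the 1 member with a peak in kEpiSCs only at this distance. Both lists depend on the limit. Within 50 kb Cdh1 had 6 EpiSC peaks, and Cldn3, Jup, Ocln and Prkci had peaks of the 2 lines that overlapped. Camsap3, Ctnna1, Ctnnd1, Dsg2 and Pard6b had no kEpiSC peak within 50 kb. At the level of peaks, 17 of the 47 EpiSC peaks (36.2%, 24.0 to 50.5%) shared at least 1 bp with a kEpiSC peak, against 23.2% of all EpiSC peaks near a TSS. Of the 21 kEpiSC peaks 17 (81.0%, 60.0 to 92.3%) overlapped an EpiSC peak, against 68.9%. The first interval began just above the share of all peaks near a TSS, and the second included it. Both intervals treat peaks as independent, whereas the 17 overlapping EpiSC peaks lay at 11 members. They may thus be too narrow, and the first does not separate the members from all peaks.

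Over all EpiSC peaks the overlap rose with the fold. Among the member peaks the lowest and middle ranges had similar shares, and the highest range had a larger one. Among the EpiSC member peaks with a fold of at least 7.41, 8 of 14 overlapped a kEpiSC peak, whereas 5 of 18 in the middle range and 4 of 15 in the lowest range did, and over all EpiSC peaks the shares were 52.1%, 22.0% and 12.8%. At the 17 overlapping places the median fold was 6.84 in EpiSCs and 6.70 in kEpiSCs. The kEpiSC list held fewer peaks and its reads were scaled differently. The part of this in the 9 members with a peak within 10 kb in EpiSCs only was not tested.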

How the data were processed

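Chromatin was fixed with 1% formaldehyde for 15 min, sonicated to 100 to 500 bp and precipitated with 2 µg of antibody. The antibody field of the labels and the methods of the study name c-Jun, while H3K27ac stands in the labels' protocol text. The authors mapped reads to mm10 with Bowtie2 and called peaks with MACS2. Versions are not given in the sources. For each peak the authors deposited a score, a fold enrichment (with 1 added to both its terms), a −log10 p-value, a −log10 q-value and the summit offset. The list is taken to pool both replicates of a line, but it is named beside the first ChIP replicate only and may rest on that library. Solving fold and p-value for reads met both columns within 0.01 for 100% of peaks, with 1 kEpiSC read counting as 0.775, and the solution was tested on simulated data.

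Genes, TSSs and introns came from curated RefSeq transcripts (GRCm38.p6). Peaks overlapped when they shared at least 1 bp. Shares have 95% Wilson intervals. For length, the share of all genes was taken in each of 10 deciles of gene length and weighted to the members. No test was made, since there was 1 list per line. All members are named, peaks within 10 kb are given with values, and the 3 highest-scoring of the other junction genes were to be named, of which 1 is not reported here, nor is 1 of the Cdh1 peaks. The members and lists were chosen with earlier results of these data known. Alternatives covered the distance, gene assignment, summit, scores, transcripts, overlap and motif window. Python 3.11.15, pandas 2.3.3, scipy 1.17.1, pysam 0.24.0 and matplotlib 3.10.9 were used.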

Additional observations from a re-analysis of the deposited data

How the results depend on the processing

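Of the alternative values computed, 45 stayed within 1.5 times the main count or within the interval of the main share, and 9 did not. The 22 members with a peak in EpiSCs ranged from 18 to 32. The 14 members in kEpiSCs became 9 within 5 kb, 25 within 50 kb, 23 by the nearest TSS, 6 with peaks scoring above the median and 9 at a −log10 q of at least 5. The 8 adherens junction genes in EpiSCs became 4 within 5 kb, 15 within 50 kb and 15 by the nearest TSS. The share of EpiSC member peaks that overlapped a kEpiSC peak, 36.2%, became 21.3% when at least 50% of both peaks had to be shared. No share of all peaks was set beside it at that setting. Under the same settings the share of all genes also moved. In EpiSCs it went from 21.8% to 15.3% within 5 kb, 50.7% within 50 kb and 33.5% by the nearest TSS. In kEpiSCs it went from 8.27% to 5.12% within 5 kb, 27.0% within 50 kb and 17.3% by the nearest TSS. With kEpiSC peaks above the median score it was 3.82%, and at a −log10 q of at least 5 it was 5.35%. The causes of these moves were not tested beyond what each setting removes or adds. No paired analysis was possible because 1 peak list per line was deposited, with no values per replicate, and no replicate could be left out for the same reason. Peaks resting on few reads, such as those with 6 or 7 at Plekha7, Ocln and Dsp, are near the depth limit of the lists, and the lack of a peak in a list is not the absence of binding.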
